A study of Homo sapiens with 16 samples.

Results

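The mitochondrial ribosomal protein genes were read as the genes whose symbol is MRPL (large subunit) or MRPS (small subunit) followed by a number, each represented by the brightest probe set that carries its symbol alone. Of 22395 genes so represented, 71 met that definition, 46 MRPL and 25 MRPS. RefSeq lists 77 genes that meet it, and the 6 others (MRPL12, MRPL30, MRPL53, MRPS24, MRPS28 and MRPS6) lay only on probe sets shared with another gene and were not analysed here. Expression was measured on whole-transcript arrays in colorectal carcinoma cells of the established lines DLD1 and HCT116. From each line came 2 derivatives with different alleles of PIK3CA, which encodes a catalytic subunit of phosphoinositide 3-kinase. Mut cells keep the mutant allele after knockout of the wild-type one, and WT cells keep the wild-type allele after knockout of the mutant one. The 8 groups were DLD1 Mut, DLD1 WT, HCT116 Mut and HCT116 WT cells, each without and with glutamine for 24 h in DMEM with 10% dialyzed serum, and each had 2 biological replicates. Each genotype was 1 derivative of its line, so a difference between Mut and WT is one between 2 derivatives, and all groups grew in the same dialyzed serum. Whether the replicates came from separate cultures is not said further, so the p-values measure the spread between these arrays.

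Mitochondrial ribosomes translate the few respiratory chain and ATP synthase subunits that mitochondrial DNA encodes. Their RNAs come from mitochondrial DNA, while all their proteins are encoded in the nucleus, made in the cytosol and imported. Many of the proteins have a counterpart in bacterial ribosomes, and others are specific to mitochondria. In many cultured tumour cells glutamine feeds the citric acid cycle, which passes electrons to that chain.

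All 71 genes passed the filter on dim genes, and 70 lay above the median of mean level. The median difference between replicates was 0.073 to 0.126 on the log2 scale for these genes and 0.141 to 0.172 for all tested genes. Colon epithelial markers were all bright enough to test, with summed linear intensities of 2997 to 6693 per array. Only 1 fibroblast, 1 leukocyte and 0 endothelial markers were, with sums of 13.4 to 22.9, 11.9 to 26.1 and 7.17 to 9.51 per array, and their part in the results was not tested. Arrays of total RNA cannot tell fewer cells with a transcript from less of it per cell.

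Without glutamine, mitochondrial ribosomal protein genes were mostly lower. Averaged over the 4 derivatives (8 against 8 arrays), 41 of the 71 genes were lower at an adjusted p under 0.05 in limma, 8 were higher and 22 did not pass. That is 57.7% of the genes lower and 11.3% higher, against a background of 23.5% lower and 24.3% higher among the 15676 tested genes. Among tested genes above the median level, which are called more often, the background was 31.4% lower and 32.7% higher. In either direction 49 of the 71 passed, and the background was 47.7%. The median log2 change of the 71 genes was -0.22 and that of all tested genes 0.00. Sizes were moderate, since the largest averaged fall was 1.88-fold and the largest averaged rise 1.30-fold.

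Each derivative had a lower mean level over the 71 genes on both arrays without glutamine. In DLD1 Mut cells this mean log2 intensity was 6.91 on both arrays without glutamine, against 7.14 and 7.16 with it. DLD1 WT cells had 6.80 and 6.82 without glutamine, against 6.96 and 6.85 with it. For HCT116 the values without and with glutamine were 6.84 and 6.80 against 7.16 and 7.11 in Mut cells, and 6.80 and 6.79 against 7.03 and 7.06 in WT cells. These means did not overlap between arrays with and without glutamine in any derivative, and they lay closest in DLD1 WT. The median log2 intensity over the 71 genes did overlap in DLD1 WT, with 6.939 and 6.987 without glutamine, against 6.957 and 6.905 with it. In the other derivatives that median was lower on both arrays without glutamine. The median of all tested genes was between 4.90 and 5.03 on every array.

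**Figure D1:**
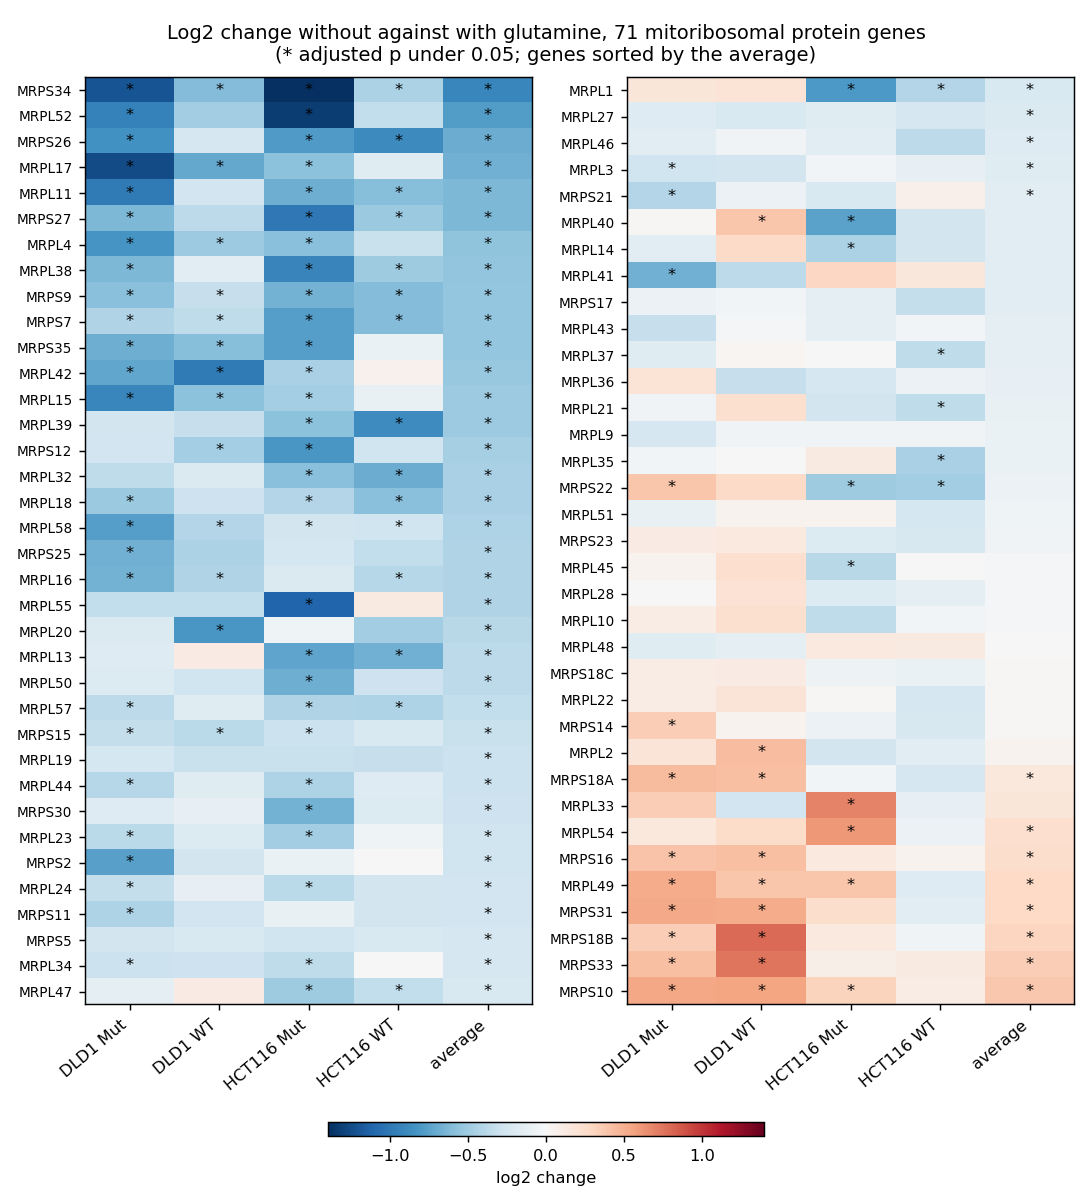
Log2 change without against with glutamine (colour) for the 71 genes (down the page, sorted by the average) in each derivative and on average (across), with a star where the adjusted p was under 0.05. Blue (lower) covers most genes, led by MRPS34 and MRPL52, and the genes with red across DLD1 (MRPS10, MRPS33, MRPS18B, MRPS31, MRPL49, MRPS16) stand at the other end.

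The gene that fell most was MRPS34, a small-subunit protein specific to mitochondria that is needed for a stable small subunit. The gene lies at chr16:1771895-1773134 on GRCh38.p14. Its log2 intensity was 8.70 and 8.82 without glutamine, against 9.92 and 10.01 with it, in DLD1 Mut cells. In HCT116 Mut cells it was 8.26 and 8.12 without glutamine, against 9.54 and 9.62 with it. Both pairs of groups were separated by more than 1 log2 unit. The WT derivatives had smaller gaps, with 8.99 and 8.92 against 9.60 and 9.53 in DLD1 and 8.96 and 8.95 against 9.37 and 9.43 in HCT116. The log2 change was -1.20 ± 0.09 in DLD1 Mut (2.30-fold lower, adjusted p = 5.8e-06), -0.61 ± 0.09 in DLD1 WT (adjusted p = 0.000614), -1.39 ± 0.09 in HCT116 Mut (2.63-fold lower, adjusted p = 2.94e-06) and -0.44 ± 0.09 in HCT116 WT (adjusted p = 0.00554). Errors here and below are limma's SE, with 2 arrays in each group. MRPS34 remained lower in all 4 derivatives whichever array was left out.

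Other small-subunit genes also fell. MRPS26, specific to mitochondria, had a log2 intensity of 6.61 and 6.73 without glutamine, against 7.53 and 7.59 with it, in HCT116 WT cells, a change of -0.89 ± 0.14. Its arrays did not overlap there, and the averaged change was -0.69 ± 0.07 (adjusted p = 1.54e-05). MRPS27, which has the helical repeats of RNA-binding pentatricopeptide proteins, had 4.90 and 4.97 without glutamine, against 5.96 and 5.90 with it, in HCT116 Mut cells. Its change was -1.0 ± 0.14 there and -0.63 ± 0.07 on average (adjusted p = 3.2e-05). MRPS7 and MRPS9, counterparts of bacterial proteins in the head of the small subunit, had averaged changes of -0.54 ± 0.05 each (adjusted p = 8.2e-06 and 6.84e-06). MRPS35 fell by 0.54 ± 0.04 on average (adjusted p = 1.5e-06), with changes of -0.69, -0.60 and -0.77 in DLD1 Mut, DLD1 WT and HCT116 Mut cells and -0.09 ± 0.08 (adjusted p = 0.492) in HCT116 WT. MRPS12, the counterpart of a bacterial protein at the decoding centre, had 5.97 and 6.0 without glutamine, against 6.78 and 6.82 with it, in HCT116 Mut cells (-0.82 ± 0.13, adjusted p = 0.000922).

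In the large subunit, MRPL17 (chr11:6680385-6683340), whose bacterial counterpart lies near the exit of the nascent chain tunnel, fell most in DLD1 Mut cells. There it had 5.72 and 5.67 without glutamine, against 7.07 and 6.83 with it (-1.25 ± 0.11, 2.38-fold lower, adjusted p = 1.27e-05). In DLD1 WT cells it had 6.16 and 6.13 against 6.94 and 6.78 (-0.71 ± 0.11, adjusted p = 0.000681). Its arrays overlapped in neither DLD1 derivative. MRPL11, the counterpart of a protein of the region where bacterial translation factors hydrolyse GTP, had 6.69 on both arrays without glutamine, against 7.65 and 7.71 with it, in DLD1 Mut cells (-0.99 ± 0.12, adjusted p = 0.000147). MRPL52, specific to mitochondria, had 3.55 and 3.09 without glutamine, against 4.67 and 4.65 with it, in HCT116 Mut cells (-1.33 ± 0.22, adjusted p = 0.000856). Its groups did not overlap there, and its SE of 0.22 was larger than the 0.09 of MRPS34. MRPL58, also called ICT1, is a ribosome-bound peptidyl-tRNA hydrolase that frees stalled ribosomes, and its averaged change was -0.43 ± 0.04 (adjusted p = 1.36e-05). Among genes named after their values were seen, MRPL38, MRPL4 and MRPL42 fell by 0.55 ± 0.06, 0.56 ± 0.08 and 0.53 ± 0.06 on average.

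A smaller set of 8 genes rose (11.3%, below the 24.3% of all tested genes), and 6 of them have MRPS symbols. MRPS10, the counterpart of a bacterial protein in the head of the small subunit, had 9.14 and 9.13 without glutamine, against 8.57 and 8.63 with it, in DLD1 Mut cells. In DLD1 WT cells it had 8.94 and 9.02 against 8.35 and 8.49. The groups were apart in both, with changes of 0.54 ± 0.10 (adjusted p = 0.00171) and 0.56 ± 0.10 (adjusted p = 0.00199), and the averaged change was 0.38 ± 0.05. MRPS33, specific to mitochondria, had 5.63 and 5.56 without glutamine, against 4.76 and 4.92 with it, in DLD1 WT cells (0.75 ± 0.13, adjusted p = 0.0013). MRPS18B, one of the paralogs that correspond to a single bacterial small-subunit protein, had 8.19 and 8.29 against 7.53 and 7.37 in DLD1 WT cells (0.79 ± 0.09, adjusted p = 8.81e-05). MRPL49, a large-subunit protein specific to mitochondria, had 8.46 and 8.44 without glutamine, against 7.97 and 7.90 with it, in DLD1 Mut cells (0.52 ± 0.09, adjusted p = 0.00137), and 8.47 and 8.45 against 8.08 and 8.06 in HCT116 Mut cells (0.39 ± 0.09, adjusted p = 0.00775). MRPS31 and MRPS16 had averaged changes of 0.28 ± 0.07 and 0.25 ± 0.05. Within single derivatives their calls in DLD1 Mut and DLD1 WT each fell away without any of 3 arrays. The other 2 genes, MRPL54 (0.23 ± 0.08, adjusted p = 0.0342) and MRPS18A (0.15 ± 0.05, adjusted p = 0.0447), lost their call without any of 9 and 14 of the 16 arrays, with adjusted p up to 0.0805 and 0.101.

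**Figure D2:**
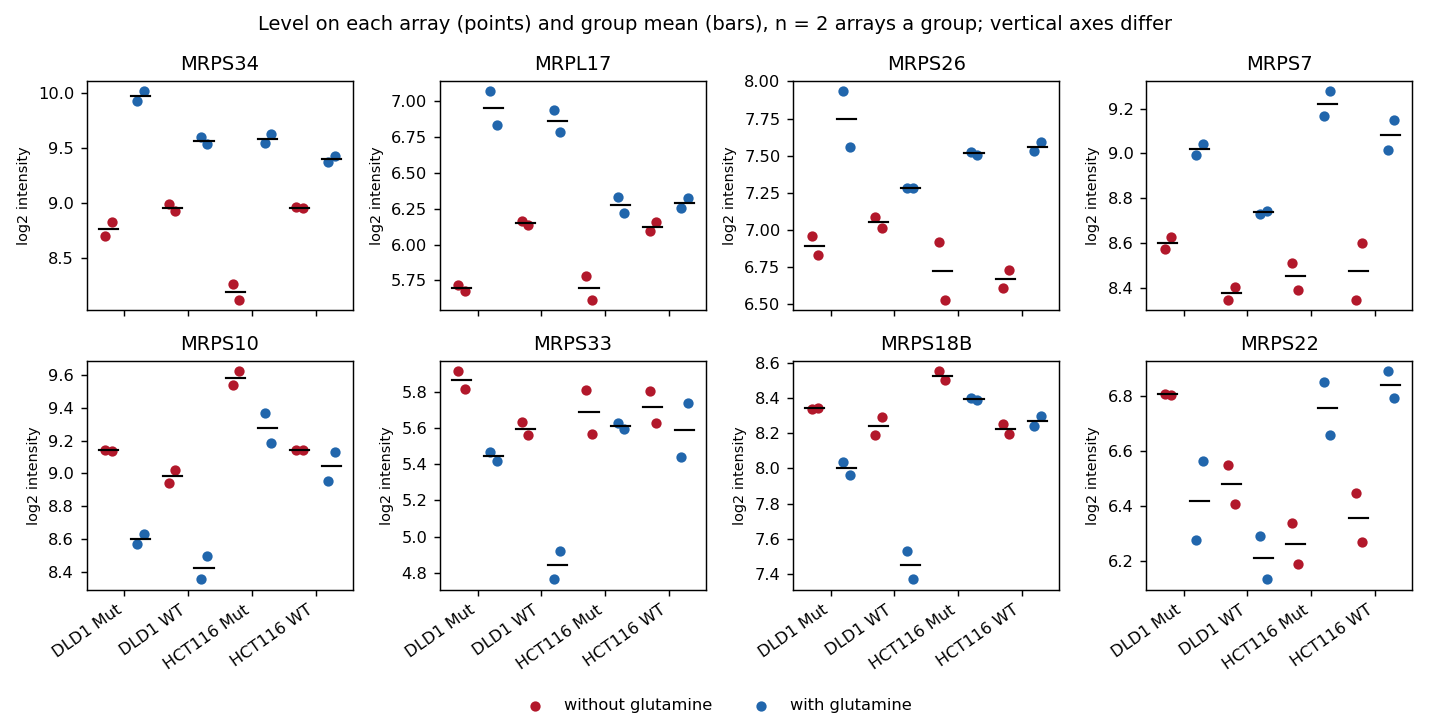
Log2 intensity (vertical axes, which differ between panels) of 8 genes on each of 16 arrays by derivative, without glutamine (red points, left of each pair) and with it (blue points), with a bar at the mean of 2 arrays. MRPS34, MRPL17, MRPS26 and MRPS7 lie lower without glutamine, MRPS10, MRPS33 and MRPS18B lie higher without glutamine in DLD1, and MRPS22 is higher without glutamine in DLD1 and lower in HCT116.

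By symbol, 27 of 46 MRPL genes were lower and 2 higher on average, and 14 of 25 MRPS genes were lower and 6 higher. MRPS30 and MRPS18A lie in the large subunit in the known structures, and with that assignment 28 of 48 large-subunit genes were lower and 3 higher, and 13 of 23 small-subunit genes were lower and 5 higher. The medians were -0.21 for the large and -0.24 for the small subunit by structure. Of 41 genes with a bacterial counterpart 26 were lower and 2 higher (median -0.24), and of 30 specific to mitochondria 15 were lower and 6 higher (median -0.16). The paralogs MRPS18A and MRPS18B were counted as specific to mitochondria, although the MRPS18 paralogs correspond to a bacterial protein. Both were among the genes higher on average, so the counts of higher genes by origin depend on this choice. These classes were compared by counts only.

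The promoters of the genes with the largest averaged falls and rises are shown because the 2 directions can then be set side by side. Each line gives the 120 bases before the annotated start from RefSeq (GRCh38.p14), 5′ to 3′ on the strand of the gene. Capitals mark a match to the ETS motif CCGGAAG, the YY1 motif AAGATGGCG, the NRF1 motif (GCGCA, any base, GCGC) or the E-box CACGTG on either strand. The first 3 genes fell and the last 3 rose.
MRPS34 (chr16:1773135-1773254, minus strand): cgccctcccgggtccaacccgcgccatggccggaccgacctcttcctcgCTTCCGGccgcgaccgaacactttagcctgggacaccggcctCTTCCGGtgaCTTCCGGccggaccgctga
MRPL52 (chr14:22829767-22829886, plus strand): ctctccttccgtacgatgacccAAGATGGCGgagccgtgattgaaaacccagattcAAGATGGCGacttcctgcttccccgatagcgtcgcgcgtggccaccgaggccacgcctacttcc
MRPS26 (chr20:3045932-3046051, plus strand): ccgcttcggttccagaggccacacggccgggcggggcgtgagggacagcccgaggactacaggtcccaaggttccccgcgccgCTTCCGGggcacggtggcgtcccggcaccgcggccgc
MRPS10 (chr6:42217862-42217981, minus strand): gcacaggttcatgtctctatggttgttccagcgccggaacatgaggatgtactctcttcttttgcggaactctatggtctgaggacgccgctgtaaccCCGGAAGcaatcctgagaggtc
MRPS33 (chr7:141014953-141015072, minus strand): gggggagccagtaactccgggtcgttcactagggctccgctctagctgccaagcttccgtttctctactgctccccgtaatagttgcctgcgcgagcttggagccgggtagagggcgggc
MRPS18B (chr6:30617720-30617839, plus strand): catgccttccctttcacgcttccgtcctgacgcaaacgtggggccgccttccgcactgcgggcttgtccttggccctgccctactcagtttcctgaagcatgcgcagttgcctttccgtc

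Of the 71 genes, 64 had a RefSeq window of 250 bases before to 50 after the start. The ETS motif, bound by factors such as GABPA, was in 27 of the 64 windows (42.2%), against 16.9% of 11735 windows of tested genes and 10.7% of all 27305 windows. The YY1 motif was in 12 (18.8%), against 3.47% of tested genes and 1.85% of all windows. For NRF1, a regulator of nuclear genes for mitochondria, 7 windows had a match (10.9%), against 10.2% of tested genes and 6.28% of all. The E-box, bound by MYC and related factors, was in 6 (9.38%), against 9.68% of tested genes and 7.43% of all. A composite ATF4 motif, TGATGNAA, was in 1 window (1.56%, against 1.93% of tested genes) and the letters CCAAT in 20 (31.2%, against 35.7%). Matches were counted on both strands. Overlapping matches were allowed, base composition was not adjusted for, and a match is a string of letters, not a measured site. Among windows of genes lower on average 12 of 38 had an ETS and 7 a YY1 match, and among those of genes higher 6 of 8 and 3 did. For CCAAT the counts were 14 of 38 and 1 of 8, for NRF1 3 and 1, for the E-box 0 and 1, and for ATF4 1 and 0. MRPS34 in the lines above has 3 ETS matches and MRPL52 has 2 YY1 matches. Further matches of MRPL52 and MRPS33 to ETS, at -5 and 0, reach past the start and lie outside the lines. Also outside the lines are YY1 matches of MRPS10 and MRPS18B, at 9 and 23, and an NRF1 match of MRPS33, at -155. The lines of MRPS33 and MRPS18B hold no match to the 4 marked motifs.

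Withdrawal was then read in each derivative, in contrasts that share no arrays. In DLD1 Mut cells 28 genes were lower and 9 higher (39.4% and 12.7%, background 16.8% lower and 16.8% higher). In DLD1 WT cells 13 were lower and 9 higher (18.3% and 12.7%, background 13.0% and 14.0%). In HCT116 Mut cells 34 were lower and 4 higher (47.9% and 5.63%, background 16.5% and 16.4%), and in HCT116 WT cells 20 were lower and 0 higher (28.2% and 0%, background 10.1% and 10.3%). Lower genes were above the background in the Mut derivatives and in HCT116 WT, and near it in DLD1 WT. Well expressed genes are called more often, and among tested genes above the median level the background was 24.0%, 19.5%, 23.9% and 16.2% lower and 24.5%, 20.9%, 23.0% and 16% higher in DLD1 Mut, DLD1 WT, HCT116 Mut and HCT116 WT. The total of 37 in DLD1 Mut (background in either direction 33.6%) was 22, 23 or 21 without replicate 2 with glutamine or replicate 1 or 2 without it. That of 22 in DLD1 WT (background 27.0%) was 14, 14 or 13 without replicate 1 with glutamine or replicate 1 or 2 without it. The 38 in HCT116 Mut (background 32.9%) were 25 without replicate 1 with glutamine, and the 20 in HCT116 WT (background 20.3%) were 13, 12 or 12 without replicate 1 or 2 with glutamine or replicate 2 without it. With 1 array left out, lower genes numbered 17 to 28 in DLD1 Mut, 7 to 13 in DLD1 WT, 22 to 34 in HCT116 Mut and 12 to 18 in HCT116 WT, and higher genes 3 to 9, 4 to 9, 2 to 4 and 0. Lower genes were fewest without replicate 2 with glutamine in DLD1 Mut and without replicate 1 with glutamine in DLD1 WT and HCT116 Mut. Withdrawal lowered 45 of the 71 genes in at least 1 derivative (63.4%, background 28.4%) and raised 13 (18.3%, background 29.1%), and 15 passed in none (21.1%, background 45.6%). For these counts no background of genes above the median level was computed.

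Each derivative had further genes with large falls. MRPL15, the counterpart of a bacterial large-subunit protein, had 7.79 and 7.81 without glutamine, against 8.63 and 8.79 with it, in DLD1 Mut cells (-0.91 ± 0.12, adjusted p = 0.000219). MRPL42 led the falls in DLD1 WT, with 6.12 and 6.01 against 7.18 and 6.93 (-0.99 ± 0.13, adjusted p = 0.000286). Its change in HCT116 WT was 0.07 ± 0.13 (adjusted p = 0.792). In HCT116 Mut cells MRPL38 had 5.37 and 5.23 without glutamine, against 6.20 and 6.26 with it (-0.93 ± 0.11, adjusted p = 0.000131). MRPL55 had 4.57 and 4.49 against 5.35 and 5.93 there (-1.11 ± 0.24, adjusted p = 0.00415) and a change of 0.13 ± 0.24 (adjusted p = 0.769) in HCT116 WT. In HCT116 WT cells MRPL39 had 6.04 and 5.96 against 7.04 and 6.71 (-0.88 ± 0.13, adjusted p = 0.00114). MRPL13 and MRPL32 fell by 0.67 ± 0.10 and 0.70 ± 0.13 there (adjusted p = 0.00108 and 0.00404). Wherever a fall is given here, the arrays with and without glutamine did not overlap, and each of these falls held without any 1 array. MRPL20 and MRPL15 in DLD1 WT (-0.81 ± 0.20 and -0.57 ± 0.12) lost their calls without any of 2 arrays each, with adjusted p up to 0.0973 and 0.0554.

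Few genes passed in all derivatives. MRPS34, MRPS7, MRPS9 and MRPL58, named after their values were seen, were lower in all 4 (5.63% of the genes, background 3.67%), and 0 were higher in all 4 (background 3.54%). MRPS7 had 8.57 and 8.63 without glutamine, against 8.99 and 9.04 with it, in DLD1 Mut, and 8.35 and 8.41 against 8.73 and 8.74 in DLD1 WT. In HCT116 it had 8.51 and 8.39 against 9.16 and 9.28 in Mut and 8.35 and 8.60 against 9.02 and 9.15 in WT cells. No array without glutamine reached the level of its own derivative with glutamine. The count of 4 changed with single arrays, and was 1 (MRPS34) without either DLD1 WT replicate with glutamine or replicate 2 without it. It was 2 without DLD1 WT replicate 1 without glutamine, DLD1 Mut replicate 2 with glutamine or DLD1 Mut replicate 1 without it. The count was 7 with a trended robust variance, 2 (MRPS34 and MRPS7) with no filter on dim genes or each line fitted separately, and 3 to 5 under the other settings. MRPL58 was closest to the threshold, with adjusted p = 0.0483 in HCT116 Mut and 0.0486 in HCT116 WT.

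**Figure D3:**
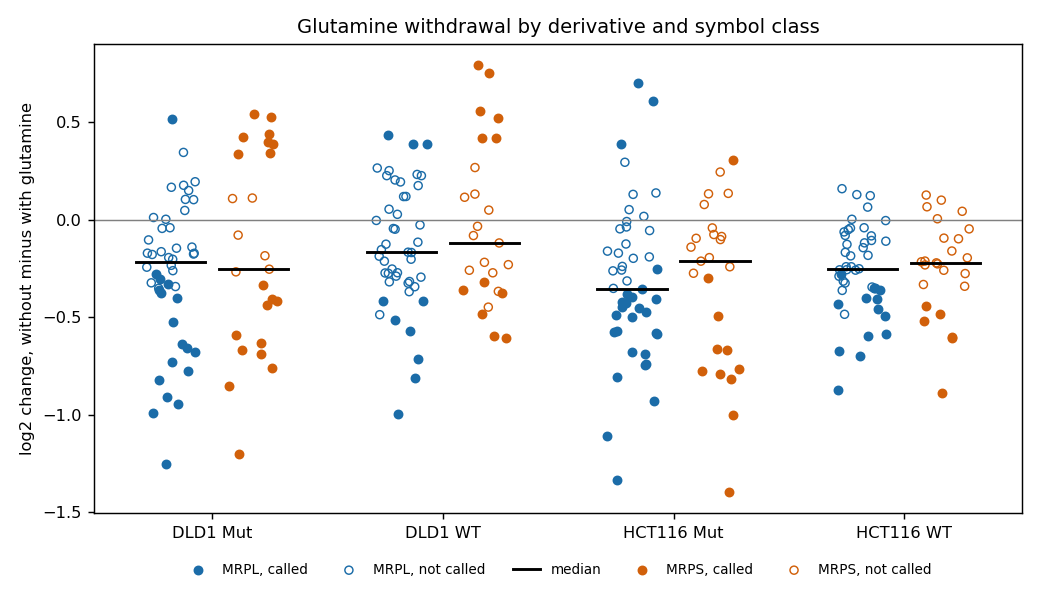
Log2 change without against with glutamine (vertical axis) of each MRPL (blue) and MRPS (orange) gene in the 4 derivatives, filled where called, with a bar at the median of each class. All medians lie below 0, between -0.35 and -0.12, and filled points above 0 are mostly MRPS genes in DLD1.

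The lines differed in their response. The change in DLD1 minus that in HCT116 (each the mean of Mut and WT) passed for 23 genes, 17 more positive in DLD1 and 6 more negative (23.9% and 8.45%, background 10.0% and 8.93%). That background was not restricted to well expressed genes, which are called more often in the withdrawal contrasts. With 1 array left out the positive count ranged over 9 to 17 and the negative over 3 to 6. The positive count was at or below 11 without either DLD1 Mut replicate with glutamine, DLD1 Mut replicate 1 without it, either DLD1 WT replicate without it, HCT116 Mut replicate 1 with glutamine, and HCT116 WT replicate 2 with or replicate 1 without glutamine. The negative count was 3 without DLD1 Mut replicate 2, DLD1 WT replicate 1 or HCT116 Mut replicate 2, all with glutamine. MRPS22 (chr3:139343994-139357140), which encodes a small-subunit protein and is mutated in an inherited mitochondrial disease, had the largest difference, 0.82 ± 0.13 (adjusted p = 0.00161). Without glutamine it had 6.81 on both arrays, against 6.28 and 6.56 with it, in DLD1 Mut, and 6.55 and 6.41 against 6.29 and 6.13 in DLD1 WT. In HCT116 it had 6.34 and 6.19 against 6.85 and 6.66 in Mut and 6.45 and 6.27 against 6.89 and 6.79 in WT cells. Every array without glutamine was above its derivative's arrays with glutamine in DLD1 and below them in HCT116. Of the variance of its 8 group means, 75.5% fell to the interaction of line and glutamine. MRPL1, whose bacterial counterpart forms the stalk where used tRNA leaves, had 4.82 and 4.84 without glutamine, against 5.69 and 5.58 with it, in HCT116 Mut cells. Its changes were 0.17 and 0.19 in DLD1 Mut and WT, against -0.81 and -0.40 in HCT116 Mut and WT, a difference of 0.79 ± 0.10 (adjusted p = 0.000489).

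MRPL40 and MRPL13 differed in the same direction, by 0.70 ± 0.12 (adjusted p = 0.00231) and 0.68 ± 0.10 (adjusted p = 0.00141). The paralogs MRPS18A and MRPS18B differed by 0.56 ± 0.11 (adjusted p = 0.00497) and 0.52 ± 0.09 (adjusted p = 0.0023). MRPL17 and MRPL42 were more negative in DLD1, by -0.61 ± 0.11 (adjusted p = 0.00306) and -0.67 ± 0.13 (adjusted p = 0.00545). MRPS2 was more negative too (-0.46 ± 0.11, adjusted p = 0.0129). All 9 genes named so far for this difference stayed past the threshold when any 1 array was left out. With a trended robust variance in limma MRPS2 lost its call (adjusted p = 0.0531). The total of 23 (background 19.0%) was 14 without either DLD1 Mut replicate with glutamine or DLD1 WT replicate 2 without it, 13 without DLD1 Mut replicate 1 without glutamine, and 15 without HCT116 WT replicate 2 with glutamine or replicate 1 without it. MRPL41 (-0.75 ± 0.23), MRPL15 (-0.45 ± 0.12) and MRPL58 (-0.33 ± 0.09) lost their call without any of 14, 7 and 8 arrays. MRPS22 and MRPL40 were the only genes called higher in 1 derivative and lower in another (2.82%, background 3.13%). For MRPS22 the call in DLD1 Mut was lost without any of 3 of its 4 arrays (adjusted p up to 0.258), and for MRPL40 the call in DLD1 WT was lost without replicate 2 with or without glutamine (adjusted p up to 0.206). Across the 71 genes the changes in DLD1 and HCT116 correlated at r = 0.51, and across all tested genes at 0.57. The genes are not independent replicates, and all points share the same arrays. Both changes were negative for 47 genes and positive for 8, while 14 were positive in DLD1 alone and 2 in HCT116 alone.

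**Figure D4:**
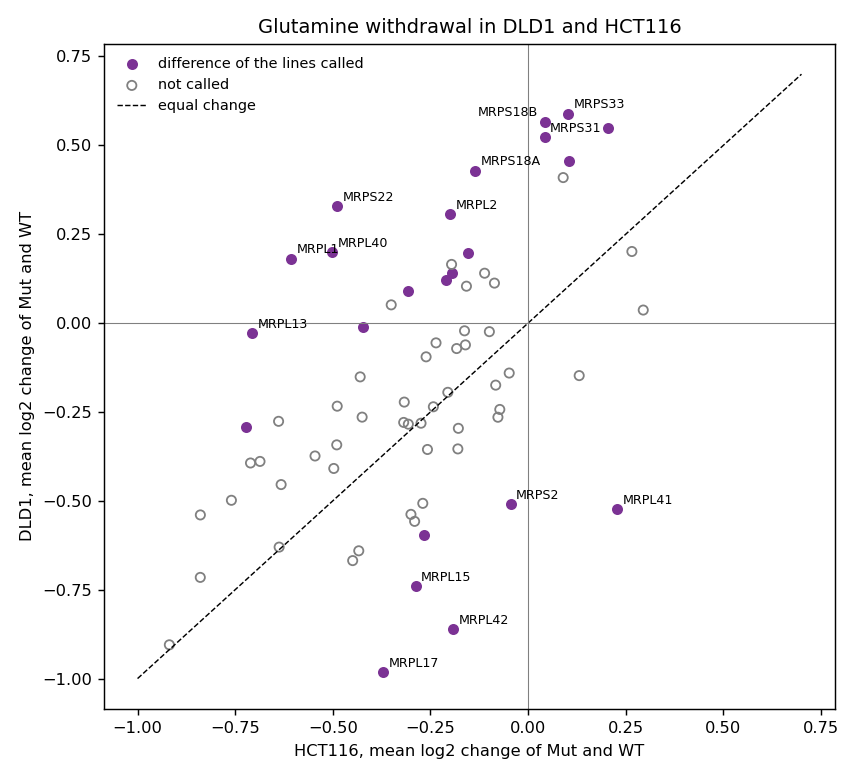
Mean log2 change without against with glutamine in DLD1 (vertical) against HCT116 (horizontal) for the 71 genes, filled where the difference of the lines was called, with the line of equal change dashed. MRPS22, MRPL1 and MRPL40 lie at upper left, and MRPL17, MRPL42 and MRPL15 below the dashed line.

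With glutamine, DLD1 Mut cells had higher levels of 13 of these genes than DLD1 WT cells, and the mean log2 intensity over the 71 was 7.14 and 7.16 in Mut, against 6.96 and 6.85 in WT cells. In that comparison 13 genes were higher and 0 lower (18.3% and 0%, background 2.60% and 3.20%), with a median difference of 0.24 against 0.02 for all tested genes. This background too was not restricted to well expressed genes. MRPS18B had 8.04 and 7.96 in Mut, against 7.53 and 7.37 in WT cells, a difference of 0.55 ± 0.09 (adjusted p = 0.00379). It stayed past the threshold without any 1 array. MRPS31 had 6.43 and 6.44 in Mut, against 5.63 and 5.78 in WT cells (0.73 ± 0.14, adjusted p = 0.0119), and MRPS33 had 5.46 and 5.42 against 4.76 and 4.92 (0.60 ± 0.13, adjusted p = 0.0187). MRPL40, MRPL47 and MRPL38 differed by 0.58 ± 0.12, 0.49 ± 0.11 and 0.48 ± 0.11. The arrays of these 6 genes did not overlap, but the calls of all except MRPS18B were lost without DLD1 Mut replicate 1 (adjusted p between 0.0612 and 0.191). The count of 13 (background in either direction 5.81%) was 2 without Mut replicate 1, 1 without Mut replicate 2, 4 or 2 without WT replicate 1 or 2, and 8 without either WT replicate grown without glutamine, which enters the fit only through the shared spread. In HCT116 with glutamine 0 genes passed in either direction (background 1.12% and 2.12%, 3.23% together), and 46 of 71 differences were positive with a median of 0.10. These comparisons use the same arrays with glutamine as the withdrawal contrasts, so their values are not independent of them.

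Without glutamine, 4 genes were higher and 1 lower in DLD1 Mut than in DLD1 WT cells (5.63% and 1.41%, background 4.36% and 5.91%), near the background. MRPS31 had 7.10 and 6.82 in Mut, against 6.25 and 6.20 in WT cells (0.74 ± 0.14, adjusted p = 0.00796). Its call was lost without Mut replicate 1 or WT replicate 2 (adjusted p up to 0.0728). MRPL36 (0.62 ± 0.16), MRPS18A (0.46 ± 0.11) and MRPL1 (0.39 ± 0.10) were also higher in Mut and MRPL17 lower (-0.45 ± 0.11). The 5 calls (background in either direction 10.3%) were 0 without either of those arrays and 1 without Mut replicate 2 or WT replicate 1. After quantile normalization the split was 4 higher and 2 lower. In HCT116, 10 were higher and 11 lower in Mut than in WT cells (14.1% and 15.5%, background 12.3% and 12.4%), also near the background. The split was 13 higher and 8 lower with the arrays shifted to the same median. MRPL54 had 5.67 and 5.38 in Mut, against 4.54 and 4.43 in WT cells (1.04 ± 0.16, 2.05-fold higher, adjusted p = 0.00107), and MRPS34 had 8.26 and 8.12 against 8.96 and 8.95 (-0.77 ± 0.09, adjusted p = 0.000186). The groups stood apart in opposite directions. MRPL49 was higher in Mut (0.48 ± 0.09, adjusted p = 0.00351) and MRPS30 lower (-0.49 ± 0.10, adjusted p = 0.00516), and these 4 calls held without any 1 array. The other calls named here, MRPL52 (-0.79 ± 0.22), MRPL15 (-0.44 ± 0.12), MRPL17 (-0.43 ± 0.11) and MRPL55 (-0.76 ± 0.24) lower and MRPS31 (0.53 ± 0.14), MRPS10 (0.44 ± 0.10), MRPL48 (0.43 ± 0.12) and MRPS16 (0.37 ± 0.11) higher in Mut, each lost their call without at least 1 array. The 21 calls (background in either direction 24.6%) were 11, 8, 12 and 7 without Mut replicate 1, Mut replicate 2, WT replicate 1 and WT replicate 2.

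Whether the response itself differed by genotype was tested as an interaction. In DLD1 0 genes passed (background 0.255% higher and 0.568% lower, 0.823% together), although 55 of 71 estimates were negative with a median of -0.16. In HCT116 the change was more positive in Mut than in WT for 1 gene, MRPL49 (0.57 ± 0.13, adjusted p = 0.0222), and more negative for 3, MRPS34, MRPS35 and MRPL55 (1.41% and 4.23%, background 4.75% and 4.75%). MRPS34 differed by -0.95 ± 0.13 (adjusted p = 0.00174), with changes of -1.39 in Mut and -0.44 in WT cells, and its call held without any 1 array. For MRPS35 the changes were -0.77 in Mut and -0.09 in WT cells, a difference of -0.68 ± 0.12 (adjusted p = 0.00599). MRPL49 and MRPL55 (-1.24 ± 0.33, adjusted p = 0.0433) were near the threshold, and the count of 4 (background 9.49%) was 2 without HCT116 Mut replicate 2 with glutamine, HCT116 WT replicate 2 with glutamine, or either HCT116 Mut replicate without glutamine.

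**Figure D5:**
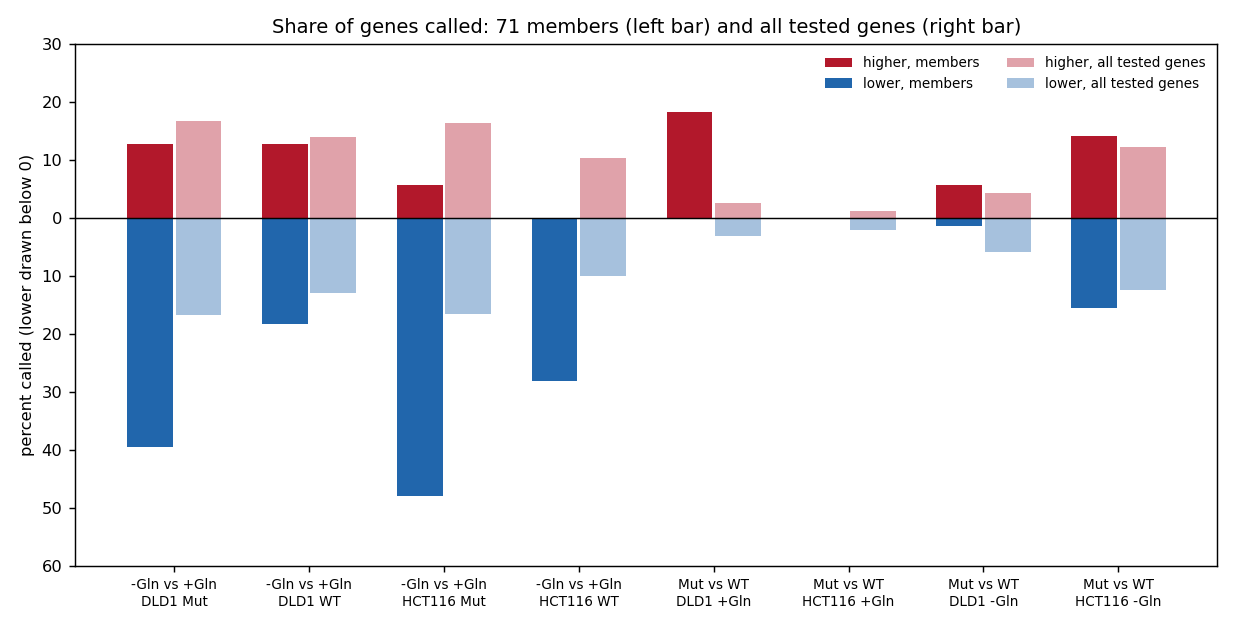
Percent of genes called higher (red, above 0) and lower (blue, below 0) in 8 comparisons, for the 71 genes (members, left bar) and all 15676 tested genes (right bar, pale). Lower calls exceed those of all tested genes most in HCT116 Mut without glutamine (47.9% against 16.5%) and least in DLD1 WT (18.3% against 13.0%). The DLD1 WT share is below the 19.5% of genes above the median level, which are not drawn. Higher calls exceed the background for DLD1 Mut against WT with glutamine (18.3% against 2.60%), a count of 13 that was 1 to 13 with 1 array left out.

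With glutamine the lines themselves differed in 36 of the 71 genes (background 47.0%). DLD1 (mean of Mut and WT) was higher than HCT116 for 14 and lower for 22 (19.7% and 31%, background 24.5% and 22.5%), with a median difference of 0.01. MRPS21, the counterpart of a bacterial small-subunit protein, differed most. It had 8.93 and 8.81 in DLD1 Mut and 8.97 and 8.79 in DLD1 WT, against 10.29 and 10.22 in HCT116 Mut and 10.24 and 10.29 in HCT116 WT. No DLD1 array came within 1 log2 unit of an HCT116 array, and the difference was -1.39 ± 0.07 (2.61-fold lower, adjusted p = 6.19e-08). MRPL10, the stalk protein that anchors MRPL12, was lower in DLD1 (-0.76 ± 0.10, adjusted p = 0.000107), and so were MRPS23 (-0.75 ± 0.05) and MRPS30 (-0.72 ± 0.07). MRPL28 and MRPL54 were higher in DLD1, by 0.81 ± 0.10 (adjusted p = 6.25e-05) and 0.76 ± 0.11 (adjusted p = 0.000225), and MRPL17, MRPS14 and MRPL16 by 0.62 ± 0.08, 0.55 ± 0.07 and 0.39 ± 0.06. MRPL38 and MRPS10 were lower in DLD1 (-0.67 ± 0.08 and -0.65 ± 0.07). The calls named here held without any 1 array, while MRPL41 (0.45 ± 0.16, adjusted p = 0.0412) lost its call without any of 12.

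The range of a gene's 8 group means ran between 0.28 (MRPL51) and 1.86 (MRPS21), with a median of 0.81 for the 71 genes and 0.94 for all tested genes. Glutamine carried a median of 35.9% of the variance of the group means, against 14.4% over all tested genes, cell line 22.4% against 27.3%, and genotype 6.28% against 4.63%. For 34 of the 71 genes (47.9%, against 28.5% of all tested genes) glutamine was the largest term, for 20 it was line and for 10 genotype. For MRPS34 glutamine carried 74.6% and for MRPS21 line carried 96.4%. These shares describe the same arrays as the contrasts and carry no test.

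MRPL58 and MRPS34 passed in the most contrasts, 9 of 13 each, while MRPL22, MRPL51, MRPS17 and MRPS18C passed in none. MRPS18C, the remaining MRPS18 paralog, had an averaged withdrawal change of 0.01 ± 0.06 (adjusted p = 0.89), beside 0.30 ± 0.04 (adjusted p = 0.000146) for MRPS18B. MRPS18A had 9.19 and 9.29 without glutamine, against 8.83 and 8.78 with it, in DLD1 Mut cells (0.44 ± 0.11, adjusted p = 0.00918), a call lost without any of 2 arrays. The 3 paralogs thus differed in whether they passed, and that difference was not tested. MRPL41 had 4.86 and 4.77 without glutamine, against 5.48 and 5.50 with it, in DLD1 Mut cells, and an averaged change of -0.15 ± 0.11 (adjusted p = 0.328). MRPS30 fell by 0.29 ± 0.05 on average (adjusted p = 0.000648). MRPS18B had 7 probe sets with identical values. MRPL33 had 2 that disagreed, with changes of 0.70 ± 0.21 (adjusted p = 0.0242) for the brighter and 0.11 for the other in HCT116 Mut cells, and the call was lost without any of 2 arrays. The gene once named MRPS36 now carries the symbol KGD4, for a subunit of the 2-oxoglutarate dehydrogenase complex, and was not among the 71.

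Other genes of mitochondrial translation were read from lists, on average over the 4 derivatives. Of all tested genes 23.5% were lower and 24.3% higher in that contrast, and of those above the median level 31.4% and 32.7%. Of 5 tested ribosomal proteins and membrane partners with other symbols, 3 were lower and 0 higher (60% and 0%): GADD45GIP1 (-0.33 ± 0.06), the membrane insertase OXA1L (-0.32 ± 0.05) and PTCD3 (-0.32 ± 0.05). Of 28 assembly and ribosomal RNA modification genes 12 were lower and 3 higher (42.9% and 10.7%). The pseudouridine synthase RPUSD4 (-0.97 ± 0.07, adjusted p = 1.4e-06), the small-subunit assembly factor RBFA (-0.86 ± 0.07) and C1QBP (-0.57 ± 0.04) fell most, and NGRN (0.56 ± 0.04), the endoribonuclease YBEY (0.56 ± 0.05) and MTERF4 (0.25 ± 0.05) rose. Of 14 translation factors and regulators 7 were lower (50%), led by the elongation factor TSFM (-0.50 ± 0.07), the RNA-binding SLIRP (-0.50 ± 0.07) and the formyltransferase MTFMT (-0.40 ± 0.07), and 2 higher (14.3%), the ribosome recycling factor MRRF (0.42 ± 0.10) and MTRFR (0.34 ± 0.10).

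Of 15 mitochondrial aminoacyl-tRNA synthetases, which charge the tRNAs these ribosomes use, 10 were lower and 1 higher (66.7% and 6.67%, against 23.5% and 24.3% of all tested genes). LARS2 (-0.78 ± 0.04, adjusted p = 1.84e-07), EARS2 (-0.62 ± 0.07) and YARS2 (-0.58 ± 0.06) fell most, and TARS2 rose (0.52 ± 0.05). Of 9 genes of mitochondrial transcription and DNA maintenance 4 were lower (44.4%), among them the RNA polymerase POLRMT (-0.56 ± 0.07), the DNA polymerase POLG (-0.53 ± 0.06) and the single-strand binding protein SSBP1 (-0.33 ± 0.05), and 1, the transcription factor TFB2M (0.12 ± 0.04, adjusted p = 0.0454), was higher. Of 10 regulators of mitochondrial biogenesis 3 were lower (30%, near the 23.5% of all tested genes and the 31.4% of those above the median level) and 1 higher (10%): the coregulator HCFC1 (-0.84 ± 0.07), the coactivator PPARGC1B (-0.60 ± 0.08) and YY1 (-0.19 ± 0.07, adjusted p = 0.0457) fell, and the nuclear receptor ESRRA rose (0.16 ± 0.06, adjusted p = 0.0391). MYC did not pass (-0.09 ± 0.04, adjusted p = 0.129).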

How the data were processed

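RNA from 16 samples (8 groups of 2) was hybridised to Affymetrix whole-transcript arrays after biotin labelling, per the labels' protocols. The deposited values are linear intensities per probe set. How the authors corrected background and normalized them is not given in the sources used here. Array medians of these linear intensities lay between 3.57 and 3.70. Intensities were converted to log2 with no pseudocount and no further normalization. Of 53617 probe sets, 23871 carried 1 gene symbol in the platform annotation, 1842 several and 27904 none. The brightest probe set stood for each of 22395 genes, and the 70% with the highest mean level, 15676 genes with a mean log2 of at least 1.65, were tested. The number of arrays, 2 in each group, limits the precision.

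One model with 8 group means was fitted to all 16 arrays by lmFit and eBayes of limma 3.58.1 (R 4.3.3), and p-values were adjusted by Benjamini-Hochberg over all tested genes. A gene was called at an adjusted p under 0.05. The 4 withdrawal contrasts share no arrays with each other, while the average, the difference of the lines, the Mut against WT contrasts and the interactions reuse the same arrays. Named were up to 6 called genes with the largest rise and fall in each contrast (those without overlap of arrays first), MRPL41, MRPS30, the MRPS18 paralogs, the genes called in most or no contrasts and those whose probe sets disagree, and up to 3 genes in each direction from each related list. The genes and lists were chosen with earlier results of these data known. The fit was first run on simulated data with independent noise and a shift only in DLD1 Mut without glutamine. That run tested neither the other contrasts nor the unknown normalization.

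Alternatives were other filters on dim genes, quantile normalization, a shift to equal medians, averaging probe sets of 1 gene, a trended robust variance, a fit for each line, the replicate number as a block and leaving out each array. Same-numbered replicates did not deviate together (r between -0.04 and 0.03 over 28 pairs of groups). The labels state no pairing, and these correlations cannot show whether same-numbered replicates were handled together. Promoter windows, coordinates and neighbours came from RefSeq on GRCh38.p14.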

Additional observations from a re-analysis of the deposited data

Results flagged for a closer look

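The limma contrast of the lines called a different effect of glutamine withdrawal in DLD1 and in HCT116 for 23 genes. More positive in DLD1 were 23.9% and more negative 8.45%, against 10.0% and 8.93% of all tested genes (19.0% together). With 1 array left out the total was 13 to 20. The log2 change in DLD1 minus that in HCT116 was 0.82 for MRPS22, 0.79 for MRPL1, 0.70 for MRPL40, 0.68 for MRPL13, 0.56 for MRPS18A, 0.52 for MRPS18B and 0.51 for MRPL2. It was 0.49 for MRPS33, 0.48 for MRPS31, 0.43 for MRPL39, 0.41 for MRPL47, 0.40 for MRPL21, 0.35 each for MRPL49, MRPS14 and MRPS10, 0.34 for MRPL45 and 0.33 for MRPS23. It was negative for MRPL41 (-0.75), MRPL42 (-0.67), MRPL17 (-0.61), MRPS2 (-0.46), MRPL15 (-0.45) and MRPL58 (-0.33). Of these, MRPL41, MRPL15 and MRPL58 each lost their call without any of several single arrays. Among the positive ones, MRPS22 had higher values without glutamine on all arrays of both DLD1 derivatives and lower ones on all arrays of both HCT116 derivatives.

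Within HCT116 the interaction in limma called a different effect of withdrawal in Mut and WT cells for 4 genes. More positive in Mut were 1.41% and more negative 4.23%, both below the 4.75% of all tested genes in each direction (9.49% together). With 1 array left out the total was 2 to 5, and the calls of MRPL55 and MRPL49 were lost without any of several single arrays. The log2 change in Mut minus that in WT was -1.24 for MRPL55, -0.95 for MRPS34, -0.68 for MRPS35 and 0.57 for MRPL49. The causes were not tested.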

How the results depend on the processing

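The count of genes called on average without glutamine, 49, was 47 to 53 under the other settings and 45 to 49 with 1 array left out. With the replicate number as a block it was 49, and the counts in DLD1 Mut, DLD1 WT, HCT116 Mut and HCT116 WT were 36, 22, 38 and 18. Under that block the calls of MRPL41 for the difference of the lines (adjusted p = 0.0583) and for the lines with glutamine (0.0536), and of MRPL55 for the interaction in HCT116 (0.06) and for Mut against WT there without glutamine (0.0514), were lost, and it moved no count by over 1.5 times.

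With 1 array left out the totals were 21 to 37 in DLD1 Mut, 13 to 22 in DLD1 WT, 25 to 38 in HCT116 Mut, 12 to 18 in HCT116 WT, 13 to 20 for the difference of the lines and 31 to 37 for the lines with glutamine. For Mut against WT they were 1 to 13 with and 0 to 5 without glutamine in DLD1, 0 with and 7 to 22 without it in HCT116, and 2 to 5 for the interaction in HCT116 and 0 for that in DLD1. With each line fitted separately, and so on fewer arrays, there were 11 calls in HCT116 WT. For Mut against WT there were then 3 with and 2 without glutamine in DLD1 and 12 without glutamine in HCT116. The interaction in HCT116 had 1 call in that setting. With a trended robust variance, calls for Mut against WT were 21 with and 12 without glutamine in DLD1 and 3 with glutamine in HCT116, and the interactions gave 4 in DLD1 and 10 in HCT116. With genes above the median level they were 8 without glutamine in DLD1, 3 with glutamine in HCT116 and 2 for the interaction in DLD1, and with no filter Mut against WT with glutamine in DLD1 gave 6. The cause of these shifts was not tested.

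Of 111 named values 106 were called, and of 2620 recomputed values 2395 kept direction and side, 209 lost the call, 3 gained it and 13 changed sign. All 13 were averaged changes near 0. For MRPL22 they were -0.0047 after quantile normalization, -0.0025 at equal medians and, with 1 array left out, -0.0333, -0.006, -0.0097 and -0.0123 within a range of -0.0333 to 0.0621. For MRPS18C they were -0.0025 and -0.0038 under those 2 settings and -0.0021, -0.0165, -0.004 and -0.0109 within a range of -0.0271 to 0.0534 with 1 left out.

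Limits are 2 arrays a group, 1 derivative for each genotype and an unknown normalization before deposit. A gene that did not pass is not shown to be unchanged. Each gene was read from 1 probe set, and MRPS18B and MRPL33 had several probe sets.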

Other observations

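Of the 64 mitochondrial ribosomal protein genes with a RefSeq window, 20 (31.2%) had a gene on the opposite strand that starts within 1000 bases upstream, against 21.8% of tested genes and 16.5% of all windows. Of their partners 14 were tested, with MRPL46 and MRPS11, which are each other's partner, counted from both sides. On average without glutamine both genes fell in 6 of these 14 cases (42.9%) and both rose in 0, and MRPL46 with MRPS11 supplied 2 of the 6. Over all 1483 tested genes with a tested partner of this kind, both fell in 10.7% and both rose in 11.3%. The gene itself fell in 9 of the 14 cases, against 437 of the 1483. MRPL57 fell by 0.34 and SKA3, a kinetochore protein gene 106 bases away, by 0.73 ± 0.05. MRPL32 fell by 0.46 and the proteasome gene PSMA2, 202 bases away, by 0.37 ± 0.05, and MRPL27 by 0.20 with the endonuclease subunit gene EME1, 45 bases away, by 0.81 ± 0.11. MRPL50 fell by 0.36 while ZNF189, 233 bases away, rose by 0.39 ± 0.13 (adjusted p = 0.0299). MRPL49 rose by 0.28, and FAU, a cytosolic ribosomal protein gene 49 bases away, changed by 0.03 ± 0.06 (adjusted p = 0.743). These pairs are a description.

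Cytosolic ribosomal protein genes, which serve the ribosomes that make the mitochondrial ribosomal proteins, were read the same way. Of 46 tested, 18 were lower and 4 higher on average without glutamine (39.1% and 8.7%), against 23.5% and 24.3% of all tested genes and 31.4% and 32.7% of those above the median level. The median change was -0.12. By derivative, lower and higher genes were 10 and 0 in DLD1 Mut, 5 and 1 in DLD1 WT, 8 and 2 in HCT116 Mut and 3 and 2 in HCT116 WT, where the median was 0.03. The shares lower were 21.7%, 10.9%, 17.4% and 6.52%, beside 16.8%, 13.0%, 16.5% and 10.1% of all tested genes. The stalk protein gene RPLP1 (-1.41 ± 0.13, adjusted p = 6.24e-06), RPS26 (-1.25 ± 0.09, adjusted p = 1.13e-06) and RPS25 (-0.79 ± 0.13) fell most. RPL37 rose by 0.63 ± 0.05, and RPL10A (0.23 ± 0.08) and RPS19 (0.14 ± 0.05) by less. Many of these genes have near-identical processed pseudogenes, so their values on arrays are uncertain.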
